A study of Mus musculus with 4 samples.

Results

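The genes described here encode the machinery that licenses replication origins and forms the replicative helicase: Orc1, Cdc6, Cdt1, the ring subunits Mcm2, Mcm3, Mcm4, Mcm5, Mcm6 and Mcm7, and the activation factor Mcm10. They were chosen by gene symbol, and all 10 were found once each among the 56691 genes of the count tables. All 10 were among the 13052 genes that passed the filter on low counts and were tested. The data are poly(A) RNA sequencing of Ter119+ cells sorted from mouse bone marrow, with 2 libraries labelled Med16 fl/fl and 2 labelled Med16 KO. Both genotypes carry the same time label of 3 weeks and the same erythroid stage label. Med16 encodes a tail subunit of Mediator, the coactivator complex between transcription factors and RNA polymerase II, and fl/fl denotes alleles flanked by recombination sites. The titles of the KO libraries carry the code DK, which the sources used here do not explain. Nor do they give the Cre driver, the deleted exons, the event from which the weeks are counted, or whether each library came from an animal of its own. All p-values therefore set the difference between genotypes only against the spread among these 4 libraries, and that spread may be technical.

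Origin licensing takes place as cells leave mitosis and in G1 phase. The origin recognition complex, of which Orc1 is the cell cycle regulated ATPase subunit, binds DNA and recruits Cdc6, and together with Cdt1 they load the Mcm2 to Mcm7 ring in an inactive form. In S phase the kinases CDK and Cdc7 with Dbf4 trigger the joining of Cdc45 and GINS to the ring, and Mcm10 helps to turn it into a moving helicase. The genes of this machinery are textbook targets of E2F transcription factors. Erythroblasts divide several times while they make haemoglobin and then leave the cell cycle, so a Ter119+ fraction holds both dividing and non-dividing cells. In such bulk samples, fewer cells of a type and less RNA per cell cannot be told apart.

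The libraries held 6749196 to 7216333 counts assigned to genes, so 1 count equalled 0.140 to 0.147 CPM (counts relative to library size, with TMM scaling factors). Each member had between 373 and 3328 counts in every library. Med16 itself had 164 and 127 counts in fl/fl and 16 and 30 in KO (log2 fold change -2.64, SE 0.34, edgeR adjusted p = 4.6e-05), which followed the labels. Erythroid marker genes were present, with Hbb-bs the highest in fl/fl and Hba-a1 in KO, 13 tested and a summed level of 186828 to 197892 CPM over the 4 libraries, and 9 were called lower and 3 higher. Over all genes tested 9.89% were called lower and 8.5% higher, which gives the scale for the counts of called markers. Other marrow cells left transcripts as well. The 8 promyelocyte markers, led by Mpo, summed to 2211 and 2216 CPM in fl/fl and 4799 and 4917 CPM in KO, with 8 of 8 called higher. The 11 late neutrophil markers, led by S100a9, summed to 13058 and 13215 CPM in fl/fl and 16634 and 16947 CPM in KO, with 9 called higher. The 10 megakaryocyte and platelet markers, led by Itga2b, summed to 95.4 and 107 CPM in fl/fl and 227 and 231 CPM in KO, with 7 of 8 tested called higher and Gp1bb at 0 counts in all libraries. The 12 B lineage markers, led by Cd79a, summed to 251 to 283 CPM in all 4 libraries, with 1 of 11 tested called higher. Rag2, with only 7 and 8 counts in fl/fl and 0 in both KO libraries, was not tested. The 12 monocyte and macrophage markers, led by Ly6c2, summed to 653 and 655 CPM in fl/fl and 755 and 772 CPM in KO, with 3 called higher and 2 lower. The 10 T and NK markers, led by Nkg7, summed to 50.5 and 50.7 CPM in fl/fl and 59.6 and 59.8 CPM in KO, with none of 6 tested called (edgeR; 1 higher and 0 lower at an unadjusted p under 0.05, 0 by DESeq2). The 10 early progenitor markers, led by Car1, summed to 457 and 479 CPM in fl/fl and 419 and 433 CPM in KO, with 4 called higher and 1 lower. The gene called lower was Car1, which made up much of that sum. Car1 was at 310 and 327 CPM in fl/fl and 214 and 248 CPM in KO. The median log2 fold change of the list was 0.63, and 2 of the 10 estimates were below 0. The mitochondrially encoded genes, a sign of RNA quality led by mt-Co1, summed to 7828 and 8398 CPM in fl/fl and 8353 and 8775 CPM in KO. Of the 10 mitochondrial genes tested 5 were called higher and 0 lower (edgeR; 1 lower at an unadjusted p under 0.05, 0 lower by DESeq2), and their median was 0.27 on the log2 scale. As a share of all counts, including those assigned to no gene, reads not aligned were 0.826% to 1.05% in fl/fl and 2.69% to 3.27% in KO. Promyelocytes and early progenitors also divide and express licensing genes, and the part of these cells and of read quality in the results below was not tested.

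Promoter sequences were available for 9 of the 10 members, all but Mcm4, from RefSeq on build GRCm38.p6, and are shown because E2F control is the best known regulatory feature that these genes share. The windows searched ran from 250 bases before to 50 bases after the start of each gene, and Mcm7 had 2 such windows. The stretch just before the start is printed for 3 genes that fell in Med16 KO (Orc1, Cdc6 and Mcm6), for Mcm5, which did not, and for Mcm2, which had no E2F match. Each reads 5′ to 3′ on the gene's strand, and capitals mark matches on either strand to the E2F letters TTCCCGC or TTCGCGC and to TTGCCGC or TTGGCGC.
Orc1, chr4:108579279-108579453, plus strand: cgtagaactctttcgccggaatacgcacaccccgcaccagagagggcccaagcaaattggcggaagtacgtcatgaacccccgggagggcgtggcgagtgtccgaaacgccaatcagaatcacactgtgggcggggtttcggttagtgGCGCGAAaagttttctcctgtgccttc
Cdc6, chr11:98907976-98908150, plus strand: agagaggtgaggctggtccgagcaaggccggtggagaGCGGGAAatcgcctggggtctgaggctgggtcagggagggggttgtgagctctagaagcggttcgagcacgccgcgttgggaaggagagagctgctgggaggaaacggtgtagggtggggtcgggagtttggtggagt
Mcm6, chr1:128359706-128359880, minus strand: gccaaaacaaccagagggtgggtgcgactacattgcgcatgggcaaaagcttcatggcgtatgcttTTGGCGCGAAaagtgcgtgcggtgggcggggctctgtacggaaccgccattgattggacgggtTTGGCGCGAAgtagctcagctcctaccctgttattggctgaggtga
Mcm5, chr8:75109334-75109508, plus strand: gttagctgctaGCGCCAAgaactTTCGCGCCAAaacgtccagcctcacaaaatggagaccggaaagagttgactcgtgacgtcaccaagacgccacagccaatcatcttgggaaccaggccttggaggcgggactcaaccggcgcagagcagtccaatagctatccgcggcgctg
Mcm2, chr6:88898781-88898955, minus strand: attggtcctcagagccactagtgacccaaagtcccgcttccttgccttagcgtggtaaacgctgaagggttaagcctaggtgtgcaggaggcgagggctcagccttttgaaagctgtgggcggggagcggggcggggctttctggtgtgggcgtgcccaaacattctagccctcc

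Such E2F letters were found in 8 of the 10 windows, belonging to Mcm3, Mcm5, Mcm6, Mcm7, Cdc6, Cdt1 and Orc1, against 9.57% of the 32851 windows of the same length in the table. The stretch before Mcm6 held 2 copies of a pair of overlapping matches, and 1 more match lay after its start. The matches of Cdt1 and Mcm3 lay after the start and outside a stretch of the kind printed here. The CCAAT letters of the NF-Y box, searched on both strands, were in 8 of the 10 windows against 37.4% in the table; in 1 Mcm7 window a CCAAT match overlapped an E2F match. The CHR letters TTTGAA, bound by the DREAM complex in many mitotic genes, were in 1 of the 10, that of Mcm2, against 17.9%, and the E-box letters CACGTG in 0 of the 10 against 7.15%. A match is a description of letters and not of a bound site. E2F letters were present in the window of each of the 3 called genes with a sequence and in those of 4 of the 6 uncalled genes.

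Licensing factors were lower in Med16 KO for Orc1 and Cdc6, together with the ring subunits Mcm4 and Mcm6, and no member was higher. Of the 10 genes, 4 fell (edgeR's quasi-likelihood test with adjustment after Benjamini-Hochberg, adjusted p under 0.05), where 9.89% of all genes tested were called lower. None rose, where 8.5% of all genes were called higher; at an unadjusted p under 0.05 the count of higher members was also 0, and DESeq2 called 4 lower and 0 higher. The median log2 fold change of the 10 was -0.17, against 0.02 for all genes tested, and 9 of 10 estimates were below 0. Both KO libraries were below both fl/fl libraries for 8 of the 10, a pattern that 28.2% of all genes tested showed. None of the 10 was called when the coefficient of variation between libraries was set to 0.2 instead of being estimated. With an offset for GC content 7 were called lower, as described below.

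**Figure D1:**
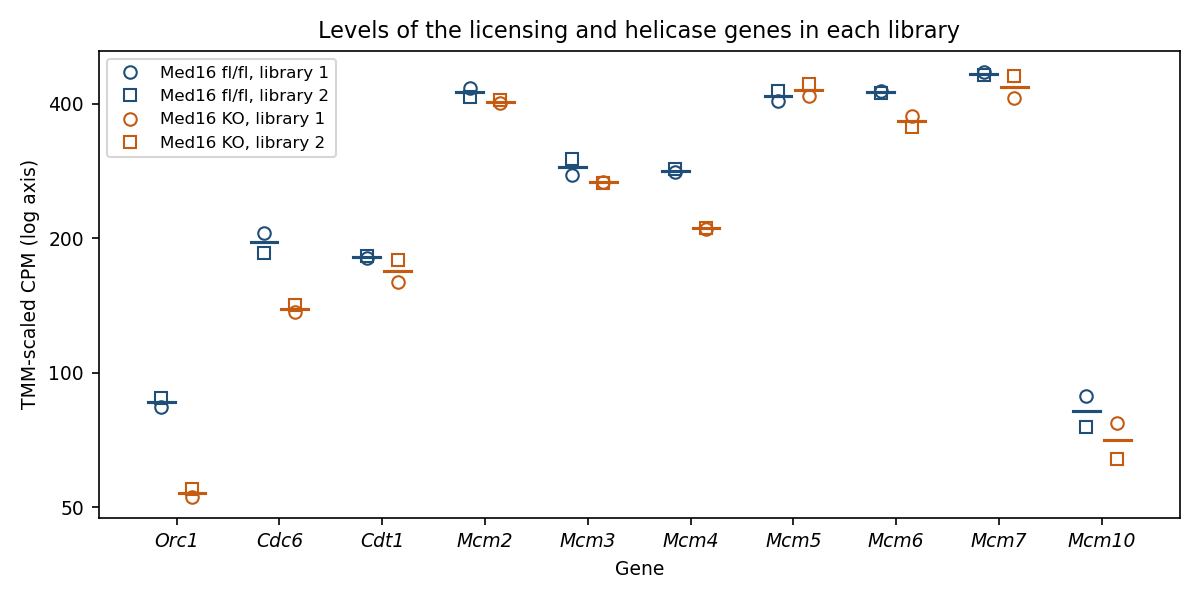
TMM-scaled CPM (log axis) of the 10 genes in each library, with blue for Med16 fl/fl, orange for Med16 KO, circles for library 1, squares for library 2 and bars for genotype means. The 2 genotypes are farthest apart for Orc1, Cdc6 and Mcm4, and overlap for Mcm5 and Mcm10.

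Orc1, the ATPase subunit of the origin recognition complex, showed the largest fall of the 10. Its level was 83.9 and 87.6 CPM in fl/fl and 52.8 and 54.9 CPM in KO. Both KO libraries were well below both fl/fl libraries, with little spread inside either genotype. The log2 fold change was -0.67 (SE 0.11, edgeR adjusted p = 0.00046), a change of -37.2% with a 95% interval from -46.7% to -26.0%. Antisense gene Gm12743 overlaps 10.8% of the exon length of Orc1 and was not called, at a log2 fold change of -0.16 (SE 0.24). With the strand setting of the counting not given, how reads in that overlap were counted is not known.

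Cdc6, the ATPase that completes the loader on the origin recognition complex, was at 206 and 186 CPM in fl/fl and at 136 and 142 CPM in KO. The spread was wider within fl/fl than within KO, but the genotypes did not overlap. The log2 fold change was -0.49 (SE 0.08, edgeR adjusted p = 0.00036), or -29.0% with a 95% interval from -36.8% to -20.1%. Cdt1, the escort that brings the ring to the loader, was at 181 and 183 CPM in fl/fl and at 160 and 179 CPM in KO. The second KO library lay close to the fl/fl level. Its log2 fold change of -0.10 (SE 0.08, edgeR adjusted p = 0.41) was not past the threshold, and the 95% interval of the change ran from -17.1% to 4.45%. The log2 fold change of Cdt1 was -0.20 without KO library 2 and -0.04 without KO library 1. Cdt1 was called lower in the former fit, which kept only KO library 1 of that genotype, and not in the latter.

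Among the ring subunits Mcm4 fell most. It was at 281 and 285 CPM in fl/fl and at 209.8 and 211 CPM in KO, so the libraries of a genotype nearly coincided and the genotypes were clearly apart. The log2 fold change was -0.43 (SE 0.06, edgeR adjusted p = 0.00016), or -25.7% with a 95% interval from -32.3% to -18.5%. Mcm6 was at 426 and 423 CPM in fl/fl and at 375 and 356 CPM in KO. Its fall was smaller, with a log2 fold change of -0.22 (SE 0.05, edgeR adjusted p = 0.011), or -14.0% with a 95% interval from -20.7% to -6.76%. The call of Mcm6 ended with library size as the only scaling, at -0.16 (adjusted p = 0.058), and on leaving out fl/fl library 1 or 2, at -0.23 in each case (adjusted p = 0.076 and 0.070).

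The other subunits of the ring did not pass the threshold in the main fit. Mcm2 was at 434 and 414 CPM in fl/fl and 401 and 407 CPM in KO, a log2 fold change of -0.07 (SE 0.05, edgeR adjusted p = 0.43). Mcm3 was at 276 and 301 CPM in fl/fl and 268 and 265 CPM in KO, a log2 fold change of -0.11 (SE 0.06, edgeR adjusted p = 0.25). Both genes were slightly lower in the KO libraries, by amounts close to the spread between the fl/fl libraries. Mcm7 was at 471 and 463 CPM in fl/fl and 412 and 461 CPM in KO, a log2 fold change of -0.10 (SE 0.06, edgeR adjusted p = 0.29). Only KO library 1 was clearly lower for Mcm7. Its log2 fold change was -0.19 without KO library 2 and -0.03 without KO library 1. Mcm7 was called lower in the former fit, which kept only KO library 1 of that genotype, and not in the latter. Mcm5 was at 406 and 426 CPM in fl/fl and 416 and 443 CPM in KO, with overlapping genotypes and a log2 fold change of 0.04 (SE 0.06, edgeR adjusted p = 0.66). Its 95% interval ran from -5.09% to 12.0%, and its sign turned in 3 of the 12 alternatives, so no direction can be given. For Mcm2, Mcm3 and Mcm7 the 95% intervals of the change ran from -12.0% to 3.15%, from -15.9% to 1.46% and from -14.3% to 1.89%.

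Mcm10, which acts after loading when the helicase is activated, was at 88.5 and 75.5 CPM in fl/fl and 77.1 and 64.0 CPM in KO. The genotypes overlapped, since KO library 1 exceeded fl/fl library 2. The log2 fold change of -0.22 (SE 0.12, edgeR adjusted p = 0.26) equalled that of Mcm6 in size but had a wider error and was not past the threshold. The log2 fold change of Mcm10 was -0.37 without KO library 1 and -0.10 without KO library 2. Mcm10 was called lower in the former fit, which kept only KO library 2 of that genotype, and not in the latter.

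**Figure D2:**
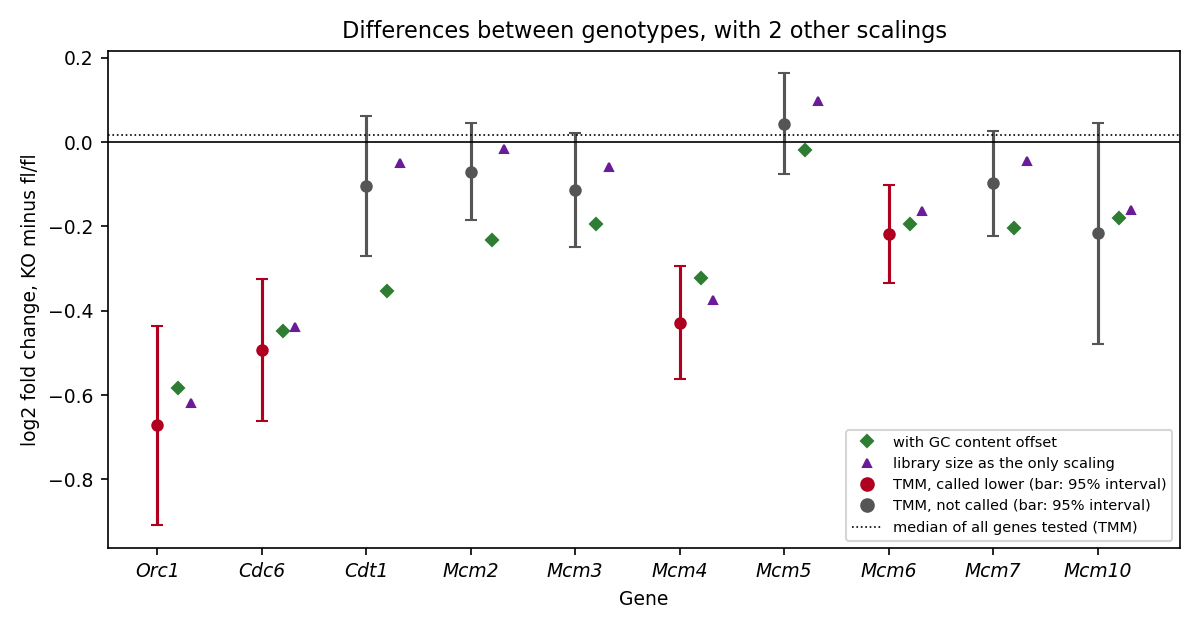
Log2 fold change (KO minus fl/fl) of each gene, with points and 95% intervals from the TMM-scaled fit (red called lower, grey not called), green diamonds with a GC content offset and purple triangles with library size as the only scaling. Orc1, Cdc6, Mcm4 and Mcm6 lie below 0 under all 3 scalings, and the GC content offset moves Cdt1 from -0.10 to -0.35.

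The log2 fold change tended to rise with the GC content of the genes, though not strictly. Over all genes tested, Spearman's rho between log2 fold change and GC content of the principal transcript was 0.31 (12844 genes, which are not independent). Over the 10 members it was 0.79, a description of 10 genes from the same 4 libraries. Mcm4 and Orc1, at 45.5% and 46.7% GC, had the lowest GC content of the 10 and were among the 3 that fell most. Cdt1 had the highest at 58.8% but a negative estimate. Mcm5, the only member with a positive estimate, was at 51.9%. With an offset for GC content, Orc1 was at -0.58, Cdc6 at -0.45, Mcm4 at -0.32 and Mcm6 at -0.19 on the log2 scale, all still called. Cdt1 at -0.35 (edgeR adjusted p = 0.0061), Mcm2 at -0.23 (0.0057) and Mcm7 at -0.20 (0.024) were then called too. That made 7 of 10 called lower, where 8.81% of all genes were called lower with the same offset. Mcm3 at -0.19, Mcm10 at -0.18 and Mcm5 at -0.02 were not past the threshold. The median of the 10 moved from -0.17 to -0.22. Whether the relation to GC content comes from the cells or from the libraries was not tested.

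Levels were compared between genes as RPKM, that is CPM per kilobase of the principal transcript. The order given here depends on that choice of length. In fl/fl the order was Mcm7 at 158 ± 2.01 RPKM (mean ± SD, n = 2), Mcm6 at 146 ± 0.692, Mcm2 at 126 ± 4.24, Mcm5 at 123 ± 4.19, Mcm3 at 95.2 ± 5.73, Cdt1 at 83.1 ± 0.575, Mcm4 at 78.8 ± 0.829, Cdc6 at 76.5 ± 5.51, Orc1 at 28.5 ± 0.852 and Mcm10 at 16.9 ± 1.88 RPKM. The libraries of Mcm2 and Mcm5 overlapped, as did those of Mcm4 and Cdc6, so neither pair can be ordered; the other neighbours did not overlap. In KO, Mcm5 at 127 ± 5.70 RPKM stood next to Mcm6 at 126 ± 4.71 and overlapped it, with Mcm2 at 120 ± 1.19 below both. The other 7 genes kept their places, from Mcm7 at 147 ± 11.6 RPKM to Mcm10 at 14.5 ± 1.90. Cdc6, Orc1 and Mcm4 were in the lower part of the order in both genotypes.

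The ring holds 1 copy of each subunit, so the share of each gene in the summed length-scaled counts of Mcm2 to Mcm7 was also compared. Such shares do not depend on library scaling, but they do depend on GC content correction. They are also tied to each other, since a lower share of some genes raises the shares of the rest. By transcript length Mcm4 was the smallest share in every library, at 10.8% and 10.9% in fl/fl and 8.90% and 8.69% in KO. The share of Mcm5 moved the other way, from 16.6% and 17.3% in fl/fl to 18.7% and 19.4% in KO, while its CPM overlapped between genotypes. For both shares the genotypes did not overlap. The exact permutation test over libraries, two-sided, gave p = 0.333 for each, the smallest that 2 against 2 libraries allow. Mcm6 had a mean of 20.1% in fl/fl, and 19.6% and 18.1% in KO, and Mcm2 had 17.8% and 16.8% in fl/fl and 18.1% and 17.9% in KO, again without overlap and with the same permutation p. The shares of Mcm3 and Mcm7 overlapped between genotypes (exact permutation p = 1 for each). With the GC content offset the difference between genotypes (KO minus fl/fl) was 2.06 percentage points for Mcm5, against 2.11 without it, and -0.93 for Mcm4, against -2.05. The genotypes remained apart for both genes. The difference for Mcm2 turned from 0.68 to -0.58, and that for Mcm6 went from -1.24 to -0.14 with overlapping libraries, so no direction can be given for either share. By transcript length and without the offset, the highest subunit exceeded the lowest by 2.03 and 1.97 times in fl/fl. In KO it did so by 2.38 and 2.65 times. Which share was smallest depended on the length used. With union exon length, a choice made after seeing the data, Mcm2 was the smallest in every library. It was at 12.1% and 11.4% in fl/fl and 12.4% and 12.2% in KO. Mcm4 was then at 15.2% in both fl/fl libraries and at 12.6% and 12.3% in KO.

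**Figure D3:**
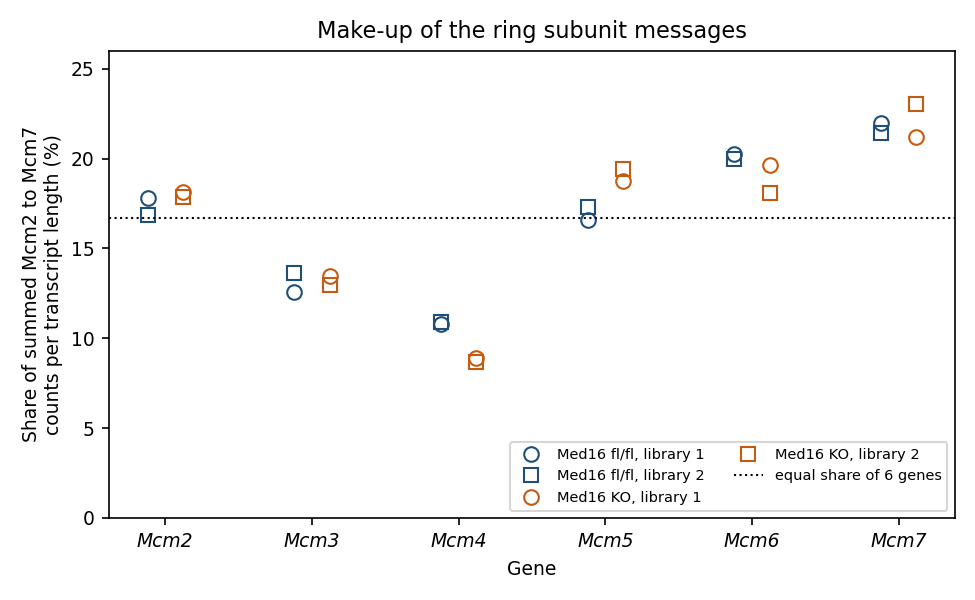
Share (%) of each gene in the summed counts per transcript length of Mcm2 to Mcm7 in each library, with blue for Med16 fl/fl, orange for Med16 KO and a dotted line at an equal share. The share of Mcm4 is lower and that of Mcm5 higher in both KO libraries, while those of Mcm3 and Mcm7 overlap; no GC content offset is applied, and with it the difference for Mcm2 turns from 0.68 to -0.58 percentage points.

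Summed over the ring, Mcm2 to Mcm7 stood at 724 and 729 RPKM in fl/fl and 657 and 676 RPKM in KO. The loaders Cdc6, Cdt1 and Orc1 summed to 191 and 185 RPKM in fl/fl and 144 and 155 RPKM in KO. As a percentage of the ring sum, the loaders made up 26.4% and 25.4% in fl/fl and 21.9% and 23.0% in KO. Both sums and their ratio were lower in each KO library than in each fl/fl library (p = 0.333 for each by the same exact permutation test).

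The rest of the licensing system included other genes that fell. Beside the counts of this and the later lists, 9.89% of all genes tested were called lower and 8.5% higher. Of 15 genes for origin recognition and control of licensing, 6 fell and none rose (0 higher at an unadjusted p under 0.05 and 0 by DESeq2), with a median log2 fold change of -0.15. Among the partners of Orc1 in the recognition complex, Orc5 was at 39.5 ± 2.07 CPM in fl/fl and 23.3 ± 4.93 CPM in KO (mean ± SD, n = 2), a fall of log2 size -0.76 (SE 0.18), and Orc6 was at 84.4 ± 6.29 and 59.4 ± 7.13 CPM (-0.51, SE 0.12). Orc2, Orc3 and Orc4, at -0.10, -0.09 and -0.40 on the log2 scale, were not called. Genes that remove or restrain licensing factors were among those that fell. Dtl, the receptor that directs Cdt1 to destruction in S phase, fell by 0.57 on the log2 scale (SE 0.10) and Cul4a, the scaffold of its ligase, by 0.40 (SE 0.06). Skp2, a receptor of another ligase that targets Cdt1, fell by 0.78 (SE 0.21), and Fbxo5, an inhibitor of the anaphase promoting complex, by 0.56 (SE 0.11). Ddb1, the adaptor in the Cul4a ligase and the uncalled gene of this list with the highest level per length, had a log2 fold change of 0.06. Gmnn, which encodes the Cdt1 inhibitor geminin, was at 80.4 and 77.1 CPM in fl/fl and 70.9 and 71.5 CPM in KO, and at -0.15 on the log2 scale (SE 0.11) it was not called.

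Of 13 genes that activate the loaded ring, 4 fell and none rose (0 higher at an unadjusted p under 0.05 and 0 by DESeq2), with a median of -0.23. Both subunits of the kinase that phosphorylates the ring were lower: Dbf4, the activator, was at 125 ± 0.903 CPM in fl/fl and 82.1 ± 5.03 CPM in KO (-0.61 on the log2 scale, SE 0.09), and Cdc7, the catalytic subunit, at 48.4 ± 3.35 and 32.6 ± 7.16 CPM (-0.57, SE 0.17). Donson, which takes part in helicase assembly, fell by 0.51 on the log2 scale (SE 0.11) and Wdhd1, which couples the helicase to DNA polymerase alpha, by 0.43 (SE 0.09). The parts that join the ring to make the active helicase were not called, with estimates on the log2 scale of -0.23 for Cdc45, 0.08 for Gins1, -0.08 for Gins2, -0.50 for Gins3 and -0.16 for Gins4. Topbp1, a scaffold of firing and the uncalled gene of this list with the highest level per length, was at -0.20. Without fl/fl library 2 only 1 gene of this list was called lower.

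Of 9 genes for fork protection and unloading of the helicase, 3 fell and none rose (0 higher at an unadjusted p under 0.05 and 0 by DESeq2), with a median of -0.26. Rif1, which with protein phosphatase 1 opposes Cdc7 at origins, was lower in KO, at 99.7 ± 5.03 CPM in fl/fl and 61.4 ± 5.98 CPM in KO (-0.70 on the log2 scale, SE 0.11). Clspn, the checkpoint mediator that travels with the fork, fell by 0.35 on the log2 scale (SE 0.08), and Ubxn7, an adaptor of the p97 segregase in unloading, by 0.46 (SE 0.14). Tipin, of the fork protection complex, had a log2 fold change of 0.06. Leaving out fl/fl library 2 gave 1 called lower in this list, and leaving out KO library 2 gave 5. None of the 4 MCM relatives and binding partners that are no part of the replicative ring (Mcm8, Mcm9, Mcmdc2 and Mcmbp) was called in either direction (0 at an unadjusted p under 0.05 and 0 by DESeq2; 1 lower without KO library 1). Mcmbp, the most abundant of them per length, had a log2 fold change of 0.13 (SE 0.15).

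**Figure D4:**
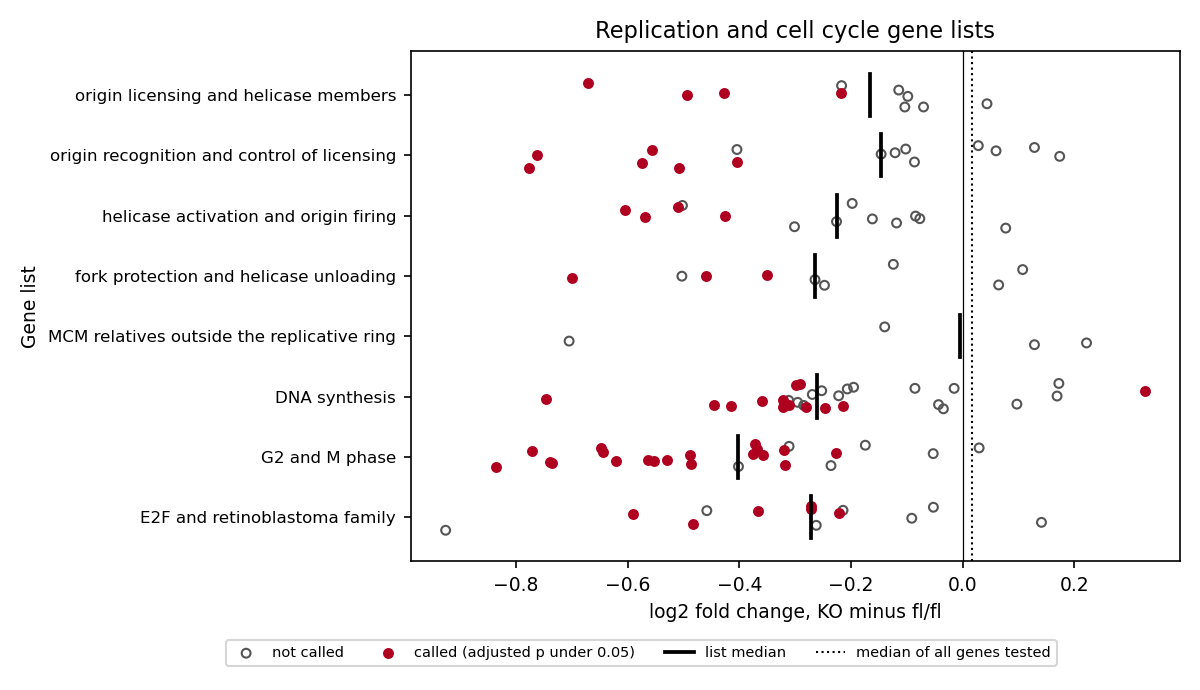
Log2 fold change (KO minus fl/fl) of the tested genes in 8 lists, with filled red points for called genes, open points for the others, black bars for list medians and a dotted line for the median of all genes tested (vertical jitter has no meaning). The median of the 10 licensing and helicase genes lies at -0.17 and that of G2 and M phase genes at -0.40.

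Other parts of the cell cycle programme give the scale of these changes. Of 28 DNA synthesis genes, 12 fell and 1 rose, with a median of -0.26; those lower were 7 with library size as the only scaling or with a GC content offset, 4 when fl/fl library 1 was left out and 5 when fl/fl library 2 was. Pcna fell by 0.42, Rrm2 by 0.36 and Rrm1 by 0.29 on the log2 scale, and Pold1 rose by 0.33. Of 25 G2 and M phase genes, 19 fell and none rose (0 higher at an unadjusted p under 0.05 and 0 by DESeq2), with a median of -0.40. Mki67 fell by 0.77, Cenpf by 0.74 and Top2a by 0.62. Of 13 genes of the E2F and retinoblastoma family, 6 fell and none rose (0 higher at an unadjusted p under 0.05 and 0 by DESeq2), with a median of -0.27. Tfdp2, which encodes a dimer partner of E2F proteins, fell by 0.59, Rb1 by 0.37 and E2f2 by 0.22. E2f1, chosen here as the activator best known for licensing genes after its values were seen, was at 89.6 and 88.9 CPM in fl/fl and 75.3 and 73.6 CPM in KO, and at -0.26 on the log2 scale (SE 0.10, edgeR adjusted p = 0.089) it was not called. Whether the licensing genes differed from these lists was not tested. With the variation between libraries set to 0.2, none of these lists had a gene called lower.

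Some members share a start region with a gene on the opposite strand, by GENCODE M21 on build GRCm38. The start of Mcm4 lies 466 bases from that of Prkdc, the DNA-dependent protein kinase gene, which is read the other way. Prkdc was at 49.0 and 38.3 CPM in fl/fl and 25.6 and 24.6 CPM in KO, and fell as Mcm4 did (log2 fold change -0.80, SE 0.17, edgeR adjusted p = 0.0042). The start of Orc1 lies 87 bases from that of the splicing factor gene Prpf38a, which was at 30.0 and 34.7 CPM in fl/fl and 32.7 and 27.7 CPM in KO. Those genotypes overlapped, and Prpf38a at -0.10 on the log2 scale (SE 0.18) was not called; its difference from Orc1 was not tested. Mcm7 lies head to head with Ap4m1, which overlaps 7.25% of its exon length on the opposite strand and was not called, at -0.28 on the log2 scale (SE 0.18). Cops6 overlaps another 1.45% of Mcm7 on that strand, with a log2 fold change of -0.01. How reads of these overlaps were counted is not known without a strand setting.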

How the data were processed

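The files hold whole-number counts per gene, which the authors deposited in 1 table for each library. The submitters' processing notes name HISAT2 2.1.0, HTSeq 0.12.4, FastQC 0.11.7, HOMER and DESeq2, with build GRCm39. Strand setting and annotation release: not given in the sources used here. The 5 rows that name no gene held 67.3% to 67.7% of each table's total and were left out.

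The test was edgeR 4.0.16's quasi-likelihood test in R 4.3.3 after filterByExpr and TMM scaling, with no covariate besides genotype, two-sided, with Benjamini-Hochberg adjustment over all genes tested and calls at an adjusted p under 0.05. The script was tested on simulated data. The SE is the log2 fold change divided by the square root of F. The test had 2 residual degrees of freedom and 13.1 prior degrees of freedom. The variance of each gene, and so its SE and p-value, was therefore drawn largely from the other genes. Each library was 1 replicate: chi-square per degree of freedom was 2.79 within fl/fl and 6.74 within KO. Transcript lengths, GC content and overlaps came from GENCODE M21, matched by identifier for 98.4% of genes tested; that build differs from the counts' build. DESeq2 1.42.0 and other alternatives are given in the closing section. The members and gene lists were chosen with earlier results of these data known. Named were all 10 members, Med16, each called gene and the highest uncalled gene per length of the licensing, activation, fork and MCM relative lists, the 3 smallest adjusted p-values of the other cell cycle lists, neighbours and leading markers. Orc2, Orc3, Orc4, Gmnn, Cdc45, the Gins genes, E2f1, Pold1, Mcm8, Mcm9, Mcmdc2, Rag2 and Gp1bb were named outside that rule after their values were seen.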

Additional observations from a re-analysis of the deposited data

How the results depend on the processing

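The 10 members were refitted under 12 alternatives. The count called lower was 4 with DESeq2, DESeq2 size factors, no filter on low counts and a transcript length offset, 3 with library size as the only scaling, 7 with a GC content offset, and 0 with the coefficient of variation set to 0.2. Leaving out 1 library gave 3 to 6. At that coefficient 331 genes were called higher and 289 lower, and the DNA synthesis, E2F, fork protection, G2 and M phase, helicase activation and origin recognition lists each had 0 called lower. DNA synthesis had 7 with library size only and 7 with the GC content offset. Leaving out 1 library gave 454 to 1839 genes higher and 704 to 2172 lower, with 4 to 16 lower for DNA synthesis, 1 to 5 for fork protection, 1 to 6 for helicase activation and 0 to 1 for MCM relatives. The Mcm5 log2 fold change turned to -0.018 with the GC content offset and ranged from -0.016 to 0.076 with 1 library left out (-0.0044 without fl/fl library 1, -0.016 without KO library 2). The share of Mcm4 moved by -2.32 percentage points from raw counts and -2.82 with union exon length (chosen after seeing the data), and that of Mcm5 by 2.62 with the latter. With a GC content offset on the shares (also chosen after seeing the data) the differences were -0.58 for Mcm2, -0.084 for Mcm3 and -0.31 for Mcm7, all 3 turned, -0.93 for Mcm4 and -0.14 for Mcm6. The cause was not tested.

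Replicate numbers did not pair the libraries (correlation of same-numbered deviations -0.01). With the replicate block 1499 genes were lower and 1268 higher, 4 members were lower and their median was -0.17; the samples share only a number.

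With 2 libraries a genotype, an exact permutation test cannot go below 0.333. In the main fit the 95% intervals of Mcm2, Mcm3, Mcm7 and Cdt1 reached from falls to small rises, so these genes were left undecided. With the GC content offset Cdt1 at -0.35, Mcm2 at -0.23 and Mcm7 at -0.20 were called lower, and Mcm3 at -0.19 was not. When 1 library was left out, the lone library was assumed to vary like the other genotype.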
